A study of Mus musculus with 17 samples.

Results

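Transcripts of the amyloid precursor protein family and of the enzymes that cut the precursor or degrade its amyloid-beta product were described in microvessels isolated from mouse cerebral cortex. The 10 genes were chosen by symbol from a table of 42687 genes: App, Aplp1 and Aplp2 of the precursor family, the secretase genes Bace1 and Adam10, the gamma-secretase subunit genes Psen2, Ncstn and Aph1a, and the degrading enzymes Mme and Ide. All 10 were among the 18753 genes that passed a filter on low counts, and their lowest count in any library was 119, for Mme. RNA was sequenced in 17 libraries of wild-type (WT) and APP/PS1 mice, the latter an amyloid model of Alzheimer's disease, at 10 to 11 months of age. Every animal received a peptide, so no untreated group was included. The peptide was gp91-ds-tat, which inhibits the superoxide-producing oxidase NOX2, or sgp91-ds-tat as its control, at 10 mg/kg by intraperitoneal injection, with doses 2 days apart over 2 weeks. The groups held 5 WT libraries with control peptide, 5 WT libraries with inhibitor, 2 APP/PS1 libraries with control peptide and 5 APP/PS1 libraries with inhibitor. The labels write the treatments as SC and NOX2, which were read here as control peptide and inhibitor. They give the genotype as APP, while the series' design text names APP/PS1, and they name no mouse line, background strain, sex or transgene promoter. In a widely used APP/PS1 line, both transgenes are driven by the promoter of Prnp, the prion protein gene. The extraction protocol speaks of the ipsilateral cortex and of a preceding surgery that it does not describe. Whether each library came from 1 animal is not stated, so p-values measure the spread between these libraries.

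The precursor protein is cut along competing routes. Cleavage by an alpha-secretase such as ADAM10 falls within the amyloid-beta stretch, whereas cleavage by BACE1 followed by gamma-secretase releases amyloid-beta. Gamma-secretase is a membrane complex of a catalytic presenilin, nicastrin, an APH1 scaffold and PEN-2, and neprilysin (Mme) and insulin-degrading enzyme (Ide) are among the proteases that break the peptide down. APLP1 and APLP2 are relatives of the precursor that lack the amyloid-beta sequence. Brain vessels are a site of amyloid deposition and a route by which the peptide leaves the brain.

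Total counts were 7316503 to 17862965 per library. CPM, the counts of a gene scaled to a common library size, were computed on sizes adjusted by the trimmed mean of M-values (TMM). The preparation is labelled as endothelium, pericytes and astrocytic endfeet, and all 7 endothelial, 8 mural and 7 astrocyte markers examined were present, with none at zero in all libraries. The endothelial markers summed to 2303 to 3651 CPM in WT and 1974 to 3602 CPM in APP/PS1, and the mural markers to 1158 to 1862 and 1076 to 1852 CPM. Neuronal RNA was present as well: the 9 neuron markers summed to between 2608 and 4336 CPM in WT and between 2701 and 4139 CPM in APP/PS1. The 6 microglia markers summed to 171 to 238 CPM in WT and 205 to 385 CPM in APP/PS1. The 4 choroid plexus markers spanned 25.3 to 7986 CPM in WT and 187 to 4673 CPM in APP/PS1, so they varied widely between libraries and the genotypes overlapped. In such bulk samples, fewer cells of a type and less RNA per cell cannot be told apart.

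The upstream sequences of the 3 family genes are shown because their transcripts rose and fell together from library to library, as described further on. Ncstn also varied with Aplp2 but its upstream sequence is not shown, and a link between sequence and level was not tested. The windows come from RefSeq promoters of assembly GRCm38.p6 and end at the base before the outermost start in RefSeq or GENCODE, which for Aplp1 and Aplp2 is the RefSeq start, upstream of the GENCODE gene ends given with each gene. They are all on the minus strand and printed 5′ to 3′. They cover chr16:85173767-85173957 for App (191 bases), chr7:30445583-30445832 for Aplp1 (250 bases) and chr9:31211849-31212098 for Aplp2 (250 bases). Capitals mark GGGCGG, the core of the GC box, where it was found on either strand.
App upstream window: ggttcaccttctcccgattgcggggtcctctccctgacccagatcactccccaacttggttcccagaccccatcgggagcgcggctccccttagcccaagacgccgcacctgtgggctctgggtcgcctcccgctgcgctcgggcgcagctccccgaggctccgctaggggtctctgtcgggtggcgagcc
Aplp1 upstream window: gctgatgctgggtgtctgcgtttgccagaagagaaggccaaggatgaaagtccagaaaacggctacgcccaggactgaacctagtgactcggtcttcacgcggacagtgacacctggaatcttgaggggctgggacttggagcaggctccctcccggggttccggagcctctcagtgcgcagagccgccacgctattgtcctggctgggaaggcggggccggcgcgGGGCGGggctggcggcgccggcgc
Aplp2 upstream window: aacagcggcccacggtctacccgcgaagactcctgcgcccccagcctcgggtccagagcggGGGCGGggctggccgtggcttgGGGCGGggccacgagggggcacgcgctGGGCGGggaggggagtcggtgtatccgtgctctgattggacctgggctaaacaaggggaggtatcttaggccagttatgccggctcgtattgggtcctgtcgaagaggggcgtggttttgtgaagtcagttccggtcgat
All 3 windows were rich in G and C, at 69.6% for App, 66% for Aplp1 and 66.4% for Aplp2. The median of 32851 mouse windows was 52.9% at the length used for App and 52.4% at the length used for the others. A share of G and C at least as high was found in 12.2% of windows for App, 15.5% for Aplp1 and 14.8% for Aplp2. These mouse windows end at the base before the RefSeq start, whereas the App window ends before the GENCODE start, further upstream. For App, the window and its background thus differ in position. GGGCGG occurred 0 times in the App window, 1 time for Aplp1 and 3 times for Aplp2. At least 1 match was found in 30.7% of all windows of 191 bases and in 32.7% of those of 250 bases. TATAAA, searched on both strands like the other motifs, was in none of the 3, against 9.51% and 12.4% of all windows. The shorter motif CCAAT was found 2 times for Aplp2 and not in the others, against 28.5% and 33.8% of all windows. The motifs share no overlapping match in these windows, and a match is only a description of the letters.

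App (ENSMUSG00000022892, chr16:84949685-85173766, minus strand, GRCm38), which encodes the precursor itself, was higher in APP/PS1, and no other of the 10 genes passed the test by genotype. In WT with control peptide its level was 2230, 1448, 1486, 1646 and 1336 CPM in the 5 libraries, and in WT with inhibitor it was 1723, 1821, 1529, 1262 and 1499 CPM. In APP/PS1 it was 3113 and 2761 CPM with control peptide, and 1897, 2500, 2521, 2062 and 3334 CPM with inhibitor. The highest WT library, replicate 1 of the control-peptide group, was above the 2 lowest APP/PS1 libraries, so the genotypes overlapped when both peptides were pooled. Within each peptide they did not overlap. Over both peptides, App was higher in APP/PS1 by 0.73 ± 0.13 (SE) on the log2 scale, a fold of 1.65 with a 95% interval of 1.37 to 1.996 (adjusted p = 0.00631). The p comes from the quasi-likelihood test of edgeR, adjusted over all genes tested by the method of Benjamini and Hochberg, and a gene is called at an adjusted p under 0.05. It made 1 of 10 genes called, where 0.587% of all genes tested were called in either direction and 0.56% as higher. At an unadjusted p under 0.05 it was likewise 1 of 10, beside 6.38% of all genes.

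The App difference did not pass the threshold with either peptide taken alone. With control peptide the log2 difference was 0.85 ± 0.22 (SE, edgeR adjusted p = 0.335), and 0 of the 10 genes were called beside a background of 0.0533%. With inhibitor it was 0.65 ± 0.17 (SE, edgeR adjusted p = 0.294), and 0 of the 10 were called beside 0.181%. The interaction, the difference between these estimates, was -0.20 ± 0.28 (SE, edgeR unadjusted p = 0.490). At an unadjusted p under 0.05, App alone of the 10 was found with each peptide, beside 3.97% of all genes with control peptide and 3.38% with inhibitor. DESeq2, another count model, called App in both, at 0.84 with an adjusted p of 0.0353 and at 0.65 with an adjusted p of 0.0211. The libraries of the genotypes did not overlap for App and Bace1 with control peptide, where 7.53% of all genes separate 2 libraries from 5. They did not overlap for App with inhibitor, where 0.784% of all genes do so. Of the microglia markers, 4 of 6 were called by genotype in the same model as App, and their mean log2 level was 4.11 to 4.50 in WT and 4.45 to 5.26 in APP/PS1. Astrocyte markers summed to 3024 to 4453 CPM in WT and 3122 to 5198 CPM in APP/PS1, with 1 of 7 called, and neutrophil markers to 8.71 to 23.3 and 21.9 to 33.02 CPM, with 1 of 4 called. With the microglia level as a covariate, chosen after seeing the data, the App difference was 0.10 ± 0.17 (SE, edgeR adjusted p = 0.802). That level itself differs by genotype, so this fit cannot tell genotype and microglia level apart. With the neuron marker level as a covariate the App difference was 0.64 (edgeR adjusted p = 0.00166).

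**Figure D1:**
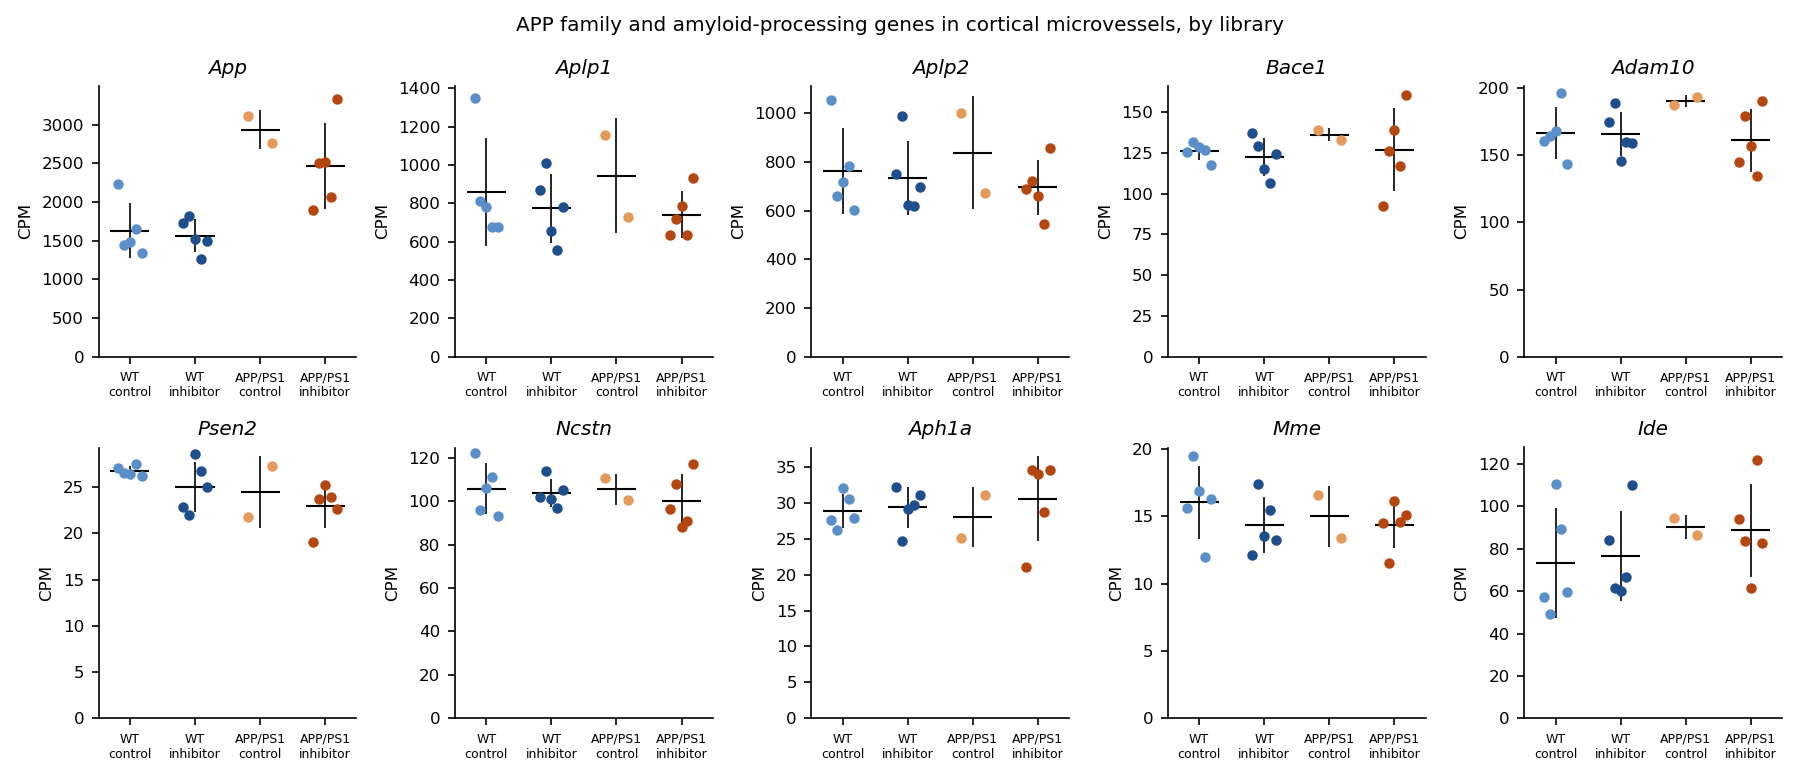
Levels of the 10 genes in each of the 17 libraries, in CPM from 0, with a point per library, a horizontal line at the group mean and a vertical line of 1 SD to each side. In the App panel the APP/PS1 points lie at 1897 to 3334 CPM and the WT points at 1262 to 2230 CPM, and in all 10 panels the genotypes overlap when both peptides are pooled.

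Neither relative of App passed the test by genotype. Aplp1 (ENSMUSG00000006651, chr7:30434982-30445535, minus strand), a family member mostly known from neurons, was at 1348, 814, 781, 676 and 677 CPM in WT with control peptide and at 869, 1012, 653, 554 and 782 CPM in WT with inhibitor. In APP/PS1 it was at 1156 and 731 CPM with control peptide and at 634, 719, 784, 637 and 934 CPM with inhibitor. Replicate 1 of WT with control peptide was the highest of all, and the groups overlapped throughout. The genotype difference was 0.01 ± 0.16 on the log2 scale (SE), with an interval of -0.32 to 0.34.

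Aplp2 (ENSMUSG00000031996, chr9:31149557-31211815, minus strand), the more broadly expressed relative, was at 1056, 660, 717, 781 and 604 CPM in WT with control peptide and at 749, 988, 622, 619 and 698 CPM in WT with inhibitor. In APP/PS1 it was at 1002 and 674 CPM with control peptide and at 689, 722, 662, 547 and 857 CPM with inhibitor. The same WT library was again the highest. The APP/PS1 libraries lay among the WT ones, apart from replicate 4 with inhibitor, which at 547 CPM was below the lowest WT library. The genotype difference was -0.002 ± 0.13 (SE), with an interval of -0.28 to 0.28. With control peptide alone the estimates were 0.14 for Aplp1 and 0.13 for Aplp2, and the 2 APP/PS1 libraries differed from each other for both relatives. Leaving out replicate 1 turned the sign, to -0.23 for Aplp1 and -0.18 for Aplp2. Without replicate 2 the estimates were 0.43 and 0.39. In these fits the lone remaining library is assumed to vary like the other groups.

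Because a ratio of counts within a library does not depend on how that library is scaled, App was also set against its relatives inside each library. Such a ratio compares groups and not the levels of the genes, whose lengths differ. App counts were 1.84 to 2.46 times the Aplp2 counts in the 10 WT libraries (mean 2.15 ± 0.164 SD) and 2.75 to 4.10 times in the 7 APP/PS1 libraries (3.56 ± 0.477 SD). No WT library reached an APP/PS1 library. The mean log2 ratios differed by 0.72 (two-sided exact permutation test, p = 5.14e-05, the smallest that 19448 splits allow, and 0.0009 after Benjamini-Hochberg adjustment over 35 tests of ratios). Within a peptide the adjusted permutation p of this ratio was 0.278 with control peptide, where 21 splits allow no smaller raw p than 0.0476, and 0.0694 with inhibitor. App to Aplp1 gave the same separation, at 1.65 to 2.44 in WT and 2.69 to 3.78 in APP/PS1, with a log2 difference of 0.71 and the same exact permutation p. The ratio of the relatives to each other, Aplp1 to Aplp2, was 0.865 to 1.28 in WT and 0.92 to 1.19 in APP/PS1 with log2 means that lay 0.01 apart (exact permutation p = 0.931).

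**Figure D2:**
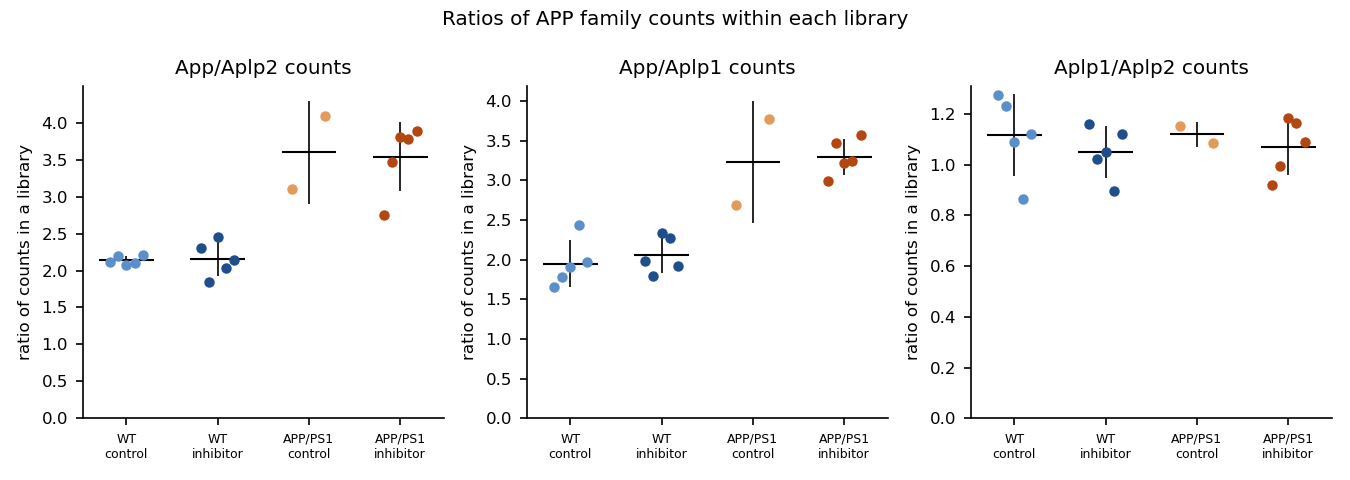
Ratios of the raw counts of the family genes within each library, from 0, with a point per library, the group mean and 1 SD to each side. App to Aplp2 and App to Aplp1 lie higher in every APP/PS1 library than in every WT library, while Aplp1 to Aplp2 lies between 0.865 and 1.28 in all 4 groups.

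As a share of all counts of the 3 family genes, App made up 50.7% ± 2.12 (SD, n = 10) in WT and 62.8% ± 2.82 (SD, n = 7) in APP/PS1. The difference was 12.1 percentage points (exact permutation p = 5.14e-05, the smallest possible). With control peptide the shares were 48.1%, 49.6%, 49.8%, 53.04% and 51.05% in WT against 59.1% and 66.3% in APP/PS1. That difference was 12.4 points (exact permutation p = 0.0476, the smallest that 21 splits allow). With inhibitor they were 51.6%, 47.6%, 54.5%, 51.8% and 50.3% in WT against 58.9%, 63.4%, 63.6%, 63.5% and 65.1% in APP/PS1. The difference there was 11.7 points (two-sided exact permutation p = 0.00794, the smallest it can give). No APP/PS1 library overlapped a WT library with either peptide. The inhibitor moved the share by 0.86 points in WT (exact permutation p = 0.524) and by 0.23 points in APP/PS1 (exact permutation p = 1.0).

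Prnp (ENSMUSG00000079037), the gene of the promoter named above, is given beside App. It was at 301 to 555 CPM (median 424) in the 10 WT libraries and at 682 to 1418 CPM (median 1101) in the 7 APP/PS1 libraries, without overlap. Its genotype difference over both peptides was 1.33 ± 0.13 on the log2 scale (SE, edgeR adjusted p = 3.79e-06). App and Prnp rose and fell together inside each genotype. In WT, Pearson's r of the log2 levels was 0.89 (n = 10, permutation p = 0.00098) and Spearman's rho 0.89 (permutation p = 0.00134). In APP/PS1, r was 0.92 (n = 7, exact permutation p = 0.00179) and rho 0.89 (exact permutation p = 0.0123). With all libraries of a genotype kept, both permutation p-values of r were 0.00357 after adjustment over 4 relations. Without the 2 libraries farthest from the median of Prnp, r was 0.75 in WT and 0.83 in APP/PS1, which was not tested. The levels share the library, its cell makeup and its scaling, and the ratio of App to Aplp2 is free of the scaling only. That ratio had r = 0.15 with Prnp in WT (rho = 0.22, permutation p = 0.671 for r). In APP/PS1 it had r = 0.71 (exact permutation p = 0.0675, adjusted 0.0899) and rho = 0.82 (exact permutation p = 0.0341), but r = 0.07 without the 2 farthest libraries, so the relation rests on those. Which counts of App came from a transgene and which from the mouse gene cannot be told apart in gene-level counts.

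**Figure D3:**
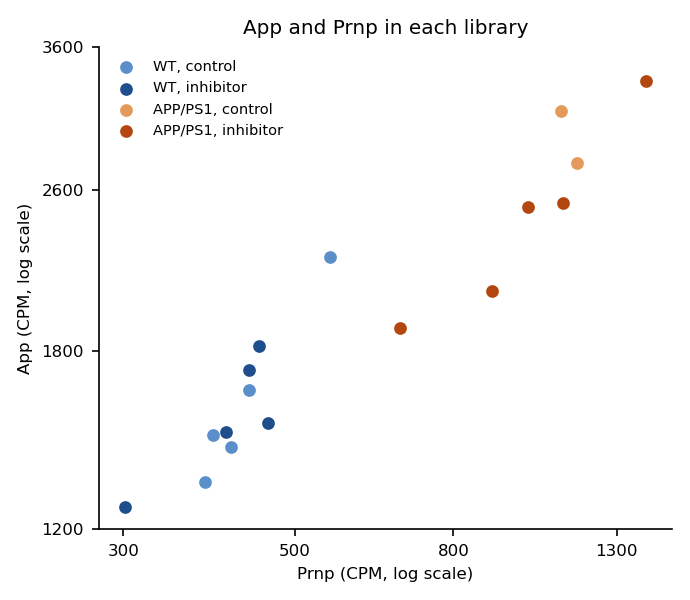
App against Prnp in each of the 17 libraries, both in CPM on log axes, coloured by group. The 7 APP/PS1 points have more Prnp (682 to 1418 CPM) than all 10 WT points (301 to 555 CPM), and within each genotype App tends to be higher where Prnp is higher (r = 0.89 in WT and 0.92 in APP/PS1).

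Neither secretase gene of the first cut passed the test by genotype. Bace1 (ENSMUSG00000032086, chr9:45838580-45864399, plus strand), the beta-secretase, was at 107 to 137 CPM in the WT libraries (median 126) and at 92.05 to 160.4 CPM in the APP/PS1 libraries (median 133). The genotype difference was 0.07 ± 0.09 (SE), with a 95% interval of -0.11 to 0.25. Among the groups of 5 libraries, the coefficient of variation was lowest in WT with control peptide, at 4.06%, and highest in APP/PS1 with inhibitor, at 20.1%.

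Adam10 (ENSMUSG00000054693, chr9:70678997-70780229, plus strand), an alpha-secretase, was at 144 to 197 CPM in WT (median 162) and at 134 to 193 CPM in APP/PS1 (median 179). The genotype difference was 0.04 ± 0.08 (SE), with an interval of -0.13 to 0.22. The ratio of Bace1 to Adam10 counts, which sets the competing cuts against each other at the transcript level, averaged 0.751 in WT and 0.767 in APP/PS1. The difference of 0.02 on the log2 scale was within the spread between libraries (p = 0.755 by exact permutation).

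None of the 3 gamma-secretase subunit genes passed the test by genotype. Psen2 (ENSMUSG00000010609, chr1:180227004-180263438, minus strand), which encodes a catalytic presenilin, was at 22.04 to 28.5 CPM in WT (median 26.5) and 19.1 to 27.3 CPM in APP/PS1 (median 23.7). Its estimate of -0.13 ± 0.08 (SE, interval -0.29 to 0.03) had the smallest p of the genes other than App (edgeR adjusted p = 0.870). Ncstn (ENSMUSG00000003458, chr1:172066013-172082795, minus strand), whose product nicastrin receives the substrate, was at 92.99 to 122 CPM in WT and 88.2 to 117 CPM in APP/PS1, with a difference of -0.03 ± 0.07 (SE). Aph1a (ENSMUSG00000015750, chr3:95893969-95898288, plus strand), the scaffold subunit, was at 24.7 to 32.3 CPM in WT and 21.04 to 34.6 CPM in APP/PS1, with a difference of 0.02 ± 0.10 (SE). Relative to Ncstn counts, Psen2 differed by -0.11 (exact permutation p = 0.318) and Aph1a by 0.07 (exact permutation p = 0.578) on the log2 scale.

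Of the degrading enzymes, Mme (ENSMUSG00000027820, chr3:63241537-63386030, plus strand), which encodes neprilysin, was the gene with the fewest counts. It was at 11.97 to 19.5 CPM in WT (median 15.5) and 11.5 to 16.6 CPM in APP/PS1 (median 14.6), with a difference of -0.04 ± 0.11 (SE). Ide (ENSMUSG00000056999, chr19:37268743-37337852, minus strand), which encodes insulin-degrading enzyme, varied most among the non-family genes. It was at 57.3, 49.4, 111, 89.5 and 59.8 CPM in WT with control peptide and at 84.2, 61.3, 59.9, 66.8 and 110.2 CPM in WT with inhibitor. In APP/PS1 it was at 94.4 and 86.4 CPM with control peptide and at 93.9, 83.6, 61.3, 122 and 82.5 CPM with inhibitor. The WT libraries thus covered a 2.24-fold range. The genotype estimate of 0.25 ± 0.17 (SE) had an interval of -0.10 to 0.60 (edgeR adjusted p = 0.905), and the ratio of Mme to Ide differed by -0.34 (exact permutation p = 0.187). The adjusted p of these ratios of enzyme genes was at least 0.931 over the 35 permutation tests.

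The 9 genes other than App thus had estimates between -0.13 and 0.25, with a median of 0.01 where all genes tested had a median of 0.0017. The lowest bound of their 95% intervals was -0.32 (Aplp1) and the highest 0.60 (Ide), and each gene's own interval bounds the difference its libraries allow. For 0 of the 10 genes were the 7 APP/PS1 libraries separated without overlap from the 10 WT ones, beside 0.272% of all genes.

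**Figure D4:**
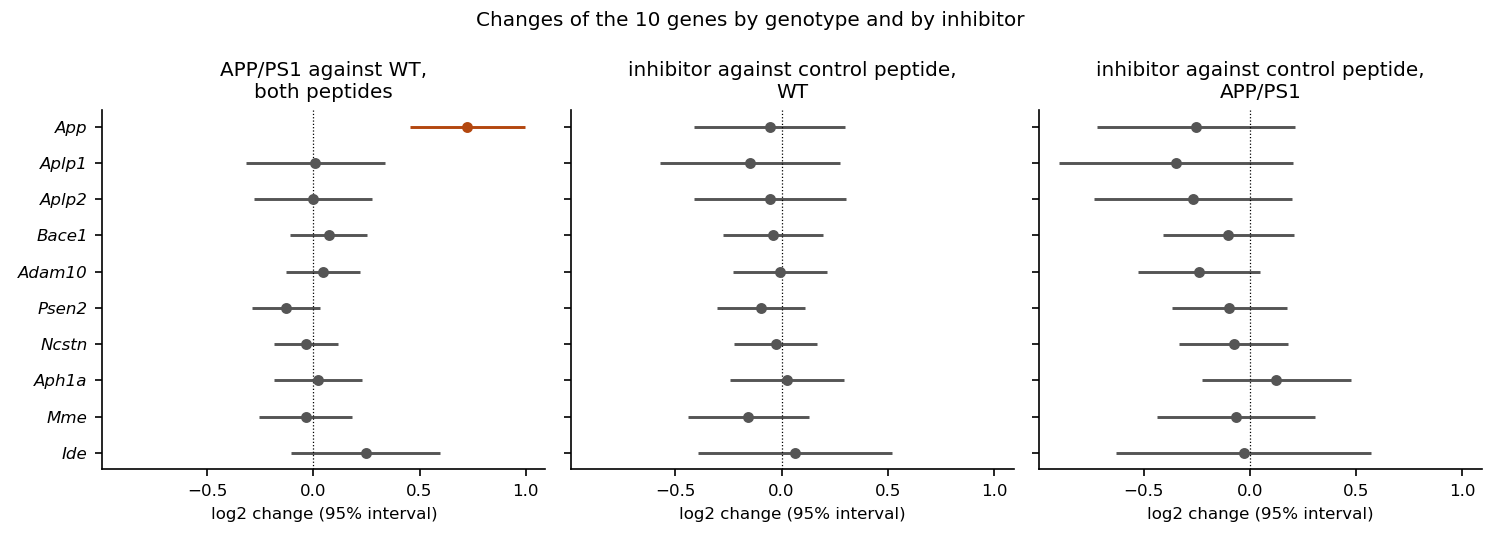
Estimated log2 changes of the 10 genes with their 95% intervals, for APP/PS1 against WT over both peptides and for the inhibitor against the control peptide in each genotype; the coloured point passed an adjusted p under 0.05. App stands at 0.73 in the genotype panel, and every other interval in the 3 panels includes 0.

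No gene of the 10 was called for the inhibitor, by edgeR or by DESeq2. Over both genotypes 0 of 10 were called beside 0% of all genes, and at an unadjusted p under 0.05 0 of 10 were found beside 2.11% of all genes. The counts were also 0 of 10 in WT (background 0%, or 1.34% unadjusted), in APP/PS1 (0%, or 1.8% unadjusted) and for the interaction (0%, or 0.843% unadjusted). In WT the estimates were between -0.16 (Mme) and 0.06 (Ide), and their intervals reached from -0.57 to 0.52. In APP/PS1 they were between -0.35 (Aplp1) and 0.13 (Aph1a), and 9 of 10 were below 0, with intervals that reached from -0.90 to 0.57. The median of the 10 estimates in APP/PS1 was -0.10, beside 0.00099 for all genes tested. No direction is read from the count of signs, because several of these genes vary together and all share the 2 control libraries. App itself had -0.06 ± 0.17 (SE) in WT and -0.25 ± 0.22 (SE) in APP/PS1, with intervals of -0.41 to 0.30 and -0.72 to 0.21. The estimates in APP/PS1 rest on 2 control libraries. Without replicate 1 of that group Aplp1 was at 0.02 and Aplp2 at 0.04, and without replicate 2 they were at -0.64 and -0.53. The inhibitor comparison and the genotype comparison share these control libraries. The libraries of the peptides overlapped for all 10 genes in each genotype, where 0.224% of all genes separated them in WT and 4.63% in APP/PS1.

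Levels between the genes were compared per kilobase of the principal transcript, in the WT libraries. App came first at 503 ± 87.7 CPM per kilobase (SD, n = 10), followed by Aplp1 at 349 ± 96.6 and Aplp2 at 206 ± 42.8. App was above Aplp1, and Aplp1 above Aplp2, in 10 of 10 libraries, although the ranges of neighbours overlapped. Adam10 and Ncstn followed at 36.2 ± 3.67 and 36.1 ± 3.08 CPM per kilobase and were not separated, with Adam10 above Ncstn in 6 of 10 libraries. Bace1 stood at 20.5 ± 1.46, Ide at 15.1 ± 4.49, Psen2 at 12.8 ± 1.01, Aph1a at 10.2 ± 0.876 and Mme at 1.89 ± 0.303. Of these, the ranges of Bace1 and Ide, of Ide and Psen2, and of Psen2 and Aph1a overlapped. There was no overlap between Aplp2 and Adam10, between Ncstn and Bace1, or between Aph1a and Mme. The order of the family depends on the length used: per kilobase of all annotated exons, which span 12996 bases for App against 3176 bases in its principal transcript, Aplp1 came first at 271, then Aplp2 at 128 and App at 123. The order of the secretase and degrading genes was the same on that scale apart from Psen2 and Aph1a, which changed places.

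The family genes varied together between libraries after the group means were subtracted. Over the 17 libraries, App and Aplp1 had Pearson's r = 0.85 and rho = 0.79 (permutation within groups, adjusted p = 0.00135 for r over 45 gene pairs), and r = 0.76 without the 2 libraries farthest from the median. App and Aplp2 had r = 0.82 and rho = 0.80 (permutation, adjusted p = 0.00165), and 0.71 without the farthest 2. Aplp1 and Aplp2 had r = 0.87 and rho = 0.75 (permutation, adjusted p = 0.00259), and 0.77 without the farthest 2. The closest pair across roles was Aplp2 and Ncstn, with r = 0.86 and rho = 0.86 (permutation, adjusted p = 0.0009) and 0.82 without the farthest 2. Of 45 pairs, 8 had an adjusted p under 0.05 for r and 7 for rho, and all 8 involved App or a relative of it. Levels in a library share its depth, its scaling and its cell makeup.

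Cell marker levels moved with several of the genes. Of 50 relations between the 10 genes and 5 marker scores, 10 had an adjusted permutation p under 0.05 for r and 4 for rho. A score is the mean log2 level of a marker list. Aplp1 followed the neuron score (r = 0.83, rho = 0.81, permutation adjusted p = 0.0045 for r, 0.79 without the 2 farthest libraries) and the oligodendrocyte score (r = 0.70, rho = 0.86, permutation adjusted p = 0.0258, 0.80 without the farthest 2). Adam10 followed the endothelial score (r = 0.83, rho = 0.77, permutation adjusted p = 0.016, 0.78 without the farthest 2). App followed the astrocyte score (r = 0.75, rho = 0.77, permutation adjusted p = 0.0241), with r = 0.59 without the farthest 2. App also followed the neuron score (r = 0.72, rho = 0.65, permutation adjusted p = 0.0241, 0.61 without the farthest 2). Within WT and APP/PS1, r of App was 0.53 and 0.94 with the astrocyte score, and 0.76 and 0.68 with the neuron score. Aplp2 followed the neuron score (r = 0.79, rho = 0.64, permutation adjusted p = 0.016), with r = 0.68 without the farthest 2. Ncstn followed the mural score (r = 0.75, rho = 0.75, permutation adjusted p = 0.0443). It also followed the astrocyte score (r = 0.68, rho = 0.68, permutation adjusted p = 0.0443, 0.47 without the farthest 2). Aplp2 with the astrocyte score had r = 0.60 and rho = 0.67 (permutation adjusted p = 0.0476, 0.36 without the farthest 2). Bace1 with the oligodendrocyte score had r = 0.70 and rho = 0.625 (permutation adjusted p = 0.0443, 0.57 without the farthest 2). For Adam10, r was 0.77 within the WT libraries and 0.91 within the APP/PS1 libraries with the endothelial score. For Aplp1 and the neuron score it was 0.85 and 0.81. Of the neuron markers, 0 of 9 were called by genotype. What cell makeup contributes to these relations was not tested.

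**Figure D5:**
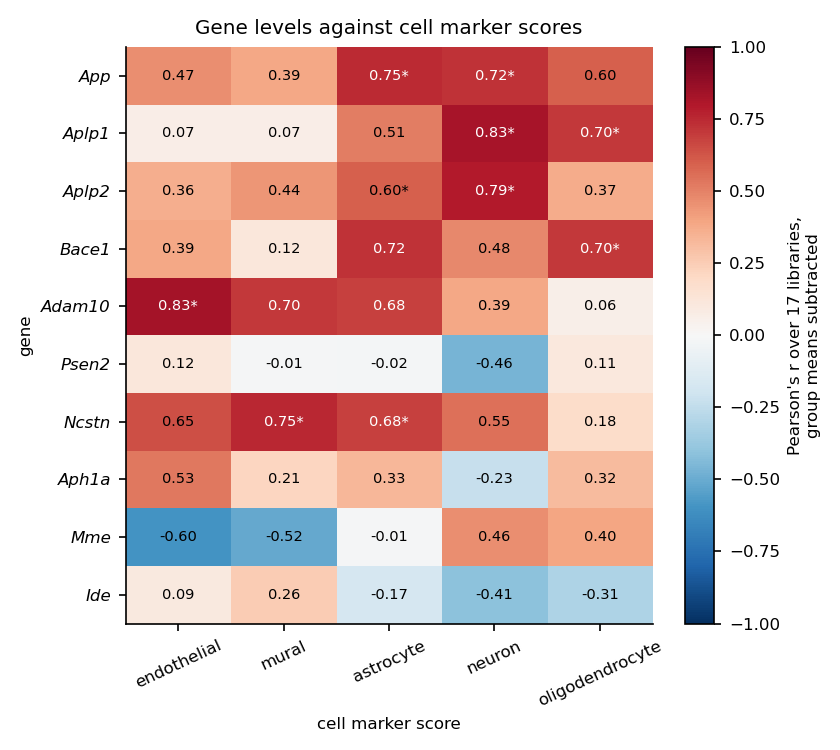
Pearson's r between the log2 level of each of the 10 genes (rows) and the marker score of each of 5 cell types (columns), over 17 libraries with group means subtracted; an asterisk marks a permutation p under 0.05 after adjustment over 50 relations. The strongest values are 0.83 for Adam10 with the endothelial score and 0.83 for Aplp1 with the neuron score.

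Genes whose levels ranked the libraries most like App did were sought among the 11191 genes with a mean of at least 10 CPM, by Spearman's rho over the 17 libraries with group means subtracted. For App, Sdf4 (rho = 0.98) and Por (0.96) were among these. For Aplp1 they were Syt5 (0.98), Lrrn1 (0.97) and Olfm1 (0.96), and for Bace1 they were Emc7 (0.94), Fam171b (0.93) and Ugcg (0.93). These are descriptions of the top of a long list, with no test.

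A further 55 genes that act on the precursor or on amyloid-beta were examined by role, of which 52 could be tested. By edgeR 0 of the 52 were called by genotype over both peptides, where 0.587% of all genes were, and 3 had an unadjusted p under 0.05 (Gsap, Ctsd and Plau), where 6.38% of all genes did, so that count is near the background. Estimates were above 0 for 34 and below 0 for 18, with a median of 0.03 beside 0.0017 for all genes tested. By role, 0 of 6 gamma-secretase partners were called, 0 of 4 other secretases, 0 of 10 degrading enzymes, 0 of 12 transport and binding genes, 0 of 11 trafficking genes and 0 of 9 adaptor and BRI genes. Gsap, whose product is described as an activating protein of gamma-secretase, was nearest to the threshold. It was at 14.3 to 25.1 CPM in WT and 19.7 to 29.6 CPM in APP/PS1, a difference of 0.46 ± 0.11 (SE, edgeR adjusted p = 0.0803). DESeq2 called Gsap alone of the 52 (0.45, DESeq2 adjusted p = 0.0182), among 176 of all genes that it called in this comparison. The subunit genes Psenen, Aph1b and Aph1c had estimates of 0.03, -0.07 and -0.21.

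In the remaining comparisons 0 of the 52 were called by edgeR or by DESeq2. With an unadjusted p under 0.05, edgeR found 1 with control peptide (Gsap at 0.61 ± 0.18 SE, edgeR adjusted p = 0.610) and 2 with inhibitor (Ctsd at 0.49 ± 0.18 SE and Gsap at 0.36 ± 0.14 SE). Ctsd encodes the lysosomal protease cathepsin D. The shares of all genes were 3.97% and 3.38%. For the effect of the inhibitor it found 2 over both genotypes (2.11% of all genes), Vps29 of the retromer at -0.13 ± 0.06 (SE) and the adaptor gene Apba3 at 0.23 ± 0.11 (SE). It found 0 in WT (1.34% of all genes), where Vps29 had the smallest p, and 1 in APP/PS1 (1.8% of all genes), Apba3 at 0.38 ± 0.18 (SE). It found 0 for the interaction (0.843% of all genes), where Lrp2, a lipoprotein receptor gene, had the smallest p. Counts of 0 to 2 of 52 are too small to set apart from such shares, and nothing is read from them.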

How the data were processed

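Cortical microvessel RNA was depleted of ribosomal RNA and made into 17 sequencing libraries with a stranded kit, as the labels' protocols state. What the authors deposited is a table of raw counts for 42687 Ensembl genes. The submitters' processing notes name cutadapt, STAR, HTSeq, DESeq2, mm10 and GRCh37, with no role or version. How reads shared by several genes were counted is not given in the sources used here. A further 20 columns matched no sample and were not used here. Groups came from the labels, which give no batch or pairing. Replicates are numbered in sample order. No pair of libraries held identical values.

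Symbols came from GENCODE vM21 (42250 of 42687 IDs matched), as did coordinates (GRCm38). Genes were filtered with filterByExpr, which left 18753, and tested with edgeR 4.0.16 (TMM scaling, quasi-likelihood F test, Benjamini-Hochberg over all genes, R 4.3.3, limma 3.58.1). An additive model of genotype and peptide and a model with 1 mean per group were fitted to all 17 libraries. Standard errors came from the estimate and its F statistic, and log2 levels used a prior count of 2. Ratios were tested over libraries by two-sided exact permutation. Correlations with group means subtracted used 100000 permutations within groups. Those with Prnp had no group means subtracted and permuted the libraries of a genotype across both peptides. They used 100000 permutations in WT and all orders for the 7 APP/PS1 libraries. Scripts were tested on simulated data. Alternatives were DESeq2 1.42.0, its size factors, no filter, removal of Gm26917 and Gm42418 (abundant noncoding genes), a neuron covariate and leaving out each library. Comparisons within a peptide or a genotype were also fitted to only the 2 groups compared. A microglia covariate was added after seeing the data.

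The genes and lists were chosen with earlier results of these data known. The rule for named genes takes all 10 genes, Prnp, the 3 genes most like App, Aplp1 and Bace1, and from the pathway list those past the threshold or with the smallest p. A gene that this rule would name is not reported here. Psenen, Aph1b, Aph1c and other pathway genes with an unadjusted p under 0.05 were named after their values were seen. Of the pathway list, Mep1b and Mmel1 did not pass the filter and Apbb3 matched no ID. Marker lists beside those in the text summed to 109 to 250 CPM (fibroblast), 1579 to 2207 CPM (oligodendrocyte), 252 to 328 CPM (oligodendrocyte precursor) and 1.04 to 31.6 CPM (erythroid) in WT. In APP/PS1 they summed to 127 to 259, 1580.4 to 2711, 228 to 334 and 9.64 to 37.9 CPM.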

Additional observations from a re-analysis of the deposited data

Results flagged for a closer look

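In groups of 5 libraries, a library was singled out when its gap to the nearest other, divided by the range of the group, was above Dixon's 95% critical value of 0.71. Of 72 such group comparisons 4 were singled out, where chance gives 3.6. Aplp1 was at 1348 CPM in replicate 1 of WT with control peptide, while the other 4 libraries were at 676 to 814 CPM. Without that library, r between App and Aplp1 was 0.79. App made up 58.9% of the family counts in replicate 1 of APP/PS1 with inhibitor, while the others were at 63.4% to 65.1%. This library lay above every WT library. Aph1a counts were 0.217 times the Ncstn counts in replicate 2 of WT with inhibitor, while the others were at 0.289 to 0.316. The astrocyte score of the same library was 7.44, while the others were at 7.03 to 7.14.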

How the results depend on the processing

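App was called by genotype over both peptides in every setting but one. Over 17 fits that each left out 1 library, its log2 difference was 0.65 to 0.77 (edgeR adjusted p 0.00216 to 0.0332). With the added microglia covariate, which itself differs by genotype, 0 of the 10 genes were called, and 8 of all genes. Under DESeq2, 1 of the 10 (App) was called with control peptide and 1 with inhibitor, among 44 and 61 of all genes. Of the 10 genes, 0 were called in the inhibitor comparisons and the interaction under all settings run. The gain in App share of family counts was 11.5 to 12.7 points when a library was left out, 10.1 points per kilobase of all exons, 12.2 points per kilobase of principal transcript and 9.67 points against Aplp2 alone. The number of marker relations was 13 with DESeq2 size factors, against 10. Of 69 uncalled effects of the 10 genes, 44 changed sign in some setting, 32 moved by a standard error or more and 2 were called under DESeq2, so no direction is read from them. No paired analysis was possible because the labels give no pairing. The 2 APP/PS1 libraries with control peptide limit every comparison that uses them.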
